A study of Mus musculus with 342 samples.

Results

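Cdkn1a and Ccng1, a pair of genes known as targets of the transcription factor p53, were followed in the livers of male mice of 44 Collaborative Cross lines given TAK-875 or its vehicle. They were chosen as 2 of the 9093 genes that a probe set of the deposited values names alone, as its only gene. Each gene has 2 such probe sets, and the one with the higher mean over all arrays was used, with the other as a check. The Collaborative Cross is a panel of recombinant inbred lines bred from genetically diverse founder strains. TAK-875 (fasiglifam) activates GPR40, a receptor for long-chain fatty acids, and was developed as a diabetes drug before being stopped over liver injury. The compound name is that of the sample labels, and the series title carries a different number. Vehicle mice received 0.5% methylcellulose in water and treated mice 600 mg/kg TAK-875, each as 1 oral gavage of 10 ml/kg at about 8 to 10 weeks of age, and livers were taken 24 h later. Every line is an inbred genotype with no transgene named in the labels. Mice were dosed in pairs of 1 vehicle and 1 TAK-875 mouse of the same line, giving 171 study pairs and 342 arrays. For 39 lines 4 pairs were given and for the other 5 lines 3. Each array holds the whole-liver RNA of 1 mouse, so the precision is limited by the number of arrays, and fewer cells of a type cannot be told apart from less RNA per cell.

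p53 is held at low levels in unstressed cells by the ubiquitin ligase Mdm2 and accumulates when DNA is damaged or the cell is otherwise stressed. Cdkn1a encodes p21, which binds cyclin-dependent kinases and PCNA and halts the cell cycle. It also responds to p53-independent signals in liver, among them glucocorticoids and growth signals. Ccng1 encodes cyclin G1, which recruits the phosphatase PP2A to Mdm2 and so feeds back on p53. Both are among the genes most often used to read p53 activity in rodent liver.

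In RefSeq on build GRCm38.p6, Cdkn1a lies on chr17:29090979-29100722 on the plus strand and Ccng1 on chr11:40748552-40755309 on the minus strand. Promoter windows from RefSeq matched both genes, with 2 windows for Cdkn1a and 1 for Ccng1. The 250 bases before the annotated start were searched for the p53 response element by its name, as a run of 20 bases with no spacer between its decamers and at most 1 mismatch. This element is its own reverse complement, so one search covers both strands. It was found in the upstream window of Cdkn1a (chr17:29090729-29090978, plus strand) and in that of Ccng1 (chr11:40755287-40755536, minus strand), each time with 1 mismatch. The windows are printed 5′ to 3′ because they show the feature that the pair shares, with the matching bases in capitals. RefSeq's Ccng1 gene runs to 40755309, so the last bases of its window overlap the gene's own 5′ end.
Cdkn1a: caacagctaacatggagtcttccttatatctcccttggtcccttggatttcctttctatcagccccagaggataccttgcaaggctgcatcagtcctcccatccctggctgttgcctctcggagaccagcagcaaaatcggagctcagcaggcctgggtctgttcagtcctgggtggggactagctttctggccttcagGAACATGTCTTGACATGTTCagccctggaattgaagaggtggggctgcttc
Ccng1: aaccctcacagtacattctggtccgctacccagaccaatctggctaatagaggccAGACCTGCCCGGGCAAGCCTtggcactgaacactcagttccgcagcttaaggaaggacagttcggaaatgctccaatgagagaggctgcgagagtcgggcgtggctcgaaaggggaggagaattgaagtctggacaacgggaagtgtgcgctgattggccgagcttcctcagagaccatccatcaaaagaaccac
The element starts 51 bases before the start of the upstream Cdkn1a transcript and 195 bases before that of Ccng1. The other Cdkn1a window, chr17:29093519-29093768, did not hold these letters. Of 32851 promoter windows of this length, 25 held the element, which is 0.0761%, and they belonged to 25 of 27025 genes. A match of letters is a description of the sequence and does not show that p53 was bound in these livers.

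Hepatocyte markers were abundant on every array, with mean levels of the 10 genes between 11.67 and 12.38 (log2) in vehicle mice and between 11.74 and 12.39 in TAK-875 mice. The median correlation of an array with those of its own line and treatment was 0.978 at the median and 0.826 at the lowest. It lay below 0.937, a limit set 3 interquartile ranges under the lower quartile, for 7 arrays. These were 1 vehicle array, of CC015/Unc, and 6 TAK-875 arrays, of CC004/TauUnc, CC010/GeniUnc, CC023/GeniUnc, CC027/GeniUnc, CC042/GeniUnc and CC053/Unc. The main results for Cdkn1a are therefore also given without the 7 study pairs that hold them.

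The 6 highest Cdkn1a values of all 342 mice were those of the 6 poorly correlated TAK-875 arrays. Cdkn1a stood at 11.38 in the CC042/GeniUnc mouse, 11.36 in the CC027/GeniUnc mouse and 11.12 in the CC004/TauUnc mouse on the log2 scale. It stood at 11.00 in the CC023/GeniUnc mouse, 10.63 in the CC053/Unc mouse and 9.86 in the CC010/GeniUnc mouse. The other 165 TAK-875 mice ran from 4.00 to 9.44 with a median of 5.78, and the 171 vehicle mice from 4.50 to 8.58 with a median of 6.13. The vehicle partners of these mice stood at 6.39, 6.30, 6.23, 5.96, 8.14 and 7.79 in the same order, so the pair differences were 4.99, 5.05, 4.90, 5.03, 2.49 and 2.07. Each is a single mouse whose line mates given TAK-875 were lower. In CC023/GeniUnc, for example, the 4 TAK-875 mice had 7.54, 6.30, 6.10 and 11.00, and in CC004/TauUnc they had 5.21, 6.19, 5.52 and 11.12.

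Ccng1 did not share this pattern of high values. On its main probe set it lay between 6.31 and 7.21 in the same 6 TAK-875 mice. This was within the range of 5.23 to 7.55 of the other 165 TAK-875 mice, whose median was 6.63. Its other probe set read 3.32 in CC027/GeniUnc, 3.91 in CC004/TauUnc and 4.05 in CC010/GeniUnc. It read 4.53 in CC023/GeniUnc, 4.57 in CC053/Unc and 5.29 in CC042/GeniUnc. The vehicle partners had 5.14, 5.61, 5.27, 5.62, 4.96 and 5.17 in this order, so only the CC042/GeniUnc mouse was above its partner. Mdm2, the p53 target that limits p53, ran from 3.88 to 5.52 in the 6 mice and from 3.90 to 5.82 in the others. Plk3, a stress-responsive polo-like kinase, ran from 9.37 to 10.20 in the 6 mice and from 4.85 to 7.53 in the others, so these ranges did not overlap. Of the 31 p53 targets measured, 7 lay wholly above the other TAK-875 mice in these 6, as did 1.68% of all genes (153 of 9093), and none lay wholly below. The arrays were chosen for standing apart, so nothing is read from this count. Beside Cdkn1a and Plk3 they were, named after their values were seen, the growth arrest gene Gadd45a (7.90 to 10.59 against 4.12 to 7.35) and 4 more. The cell death genes were Trp53inp1 (8.88 to 10.93 against 4.52 to 8.65) and Bcl2l11 (6.29 to 8.27 against 3.99 to 6.17). Ddit4 (8.28 to 10.04 against 3.92 to 7.36) and Sesn2 (6.65 to 7.12 against 5.13 to 6.58), a stress-induced inhibitor of mTOR signalling, completed the 7. The death receptor gene Fas, at 4.04 to 4.77 against 3.75 to 5.54, and the DNA repair gene Ddb2, at 3.79 to 5.07 against 3.37 to 5.91, lay within the range of the others. The cell death gene Bbc3 ran from 4.83 to 6.70 against 5.20 to 7.21. Its pair differences were -1.71 in CC004/TauUnc, -1.38 in CC023/GeniUnc, -1.20 in CC027/GeniUnc and -1.65 in CC042/GeniUnc, where the other pairs reached -1.14 at the lowest. In CC010/GeniUnc and CC053/Unc they were 0.56 and 0.54. The 5 neutrophil markers measured had a mean level of 4.26 to 7.42 in the 6 mice against 3.14 to 5.14 in the others, and the 2 cholangiocyte markers 4.09 to 6.07 against 3.26 to 6.02. The 2 cholangiocyte markers differed in these 6 mice. Krt19 stood at 3.21 to 4.07, at percentiles 3.5 to 81.3 of the TAK-875 mice, and Sox9 at 4.96 to 8.07, at percentiles 95.9 to 99.4. The 9 endothelial markers had 6.25 to 6.71 against 5.56 to 6.55, and the 10 hepatocyte markers 11.87 to 12.25 against 11.74 to 12.39. The part of these cell types, and of whatever lowered the correlation of these arrays, in the Cdkn1a values was not tested. The mice were singled out by array correlation, so no test was made on them.

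**Figure D1:**
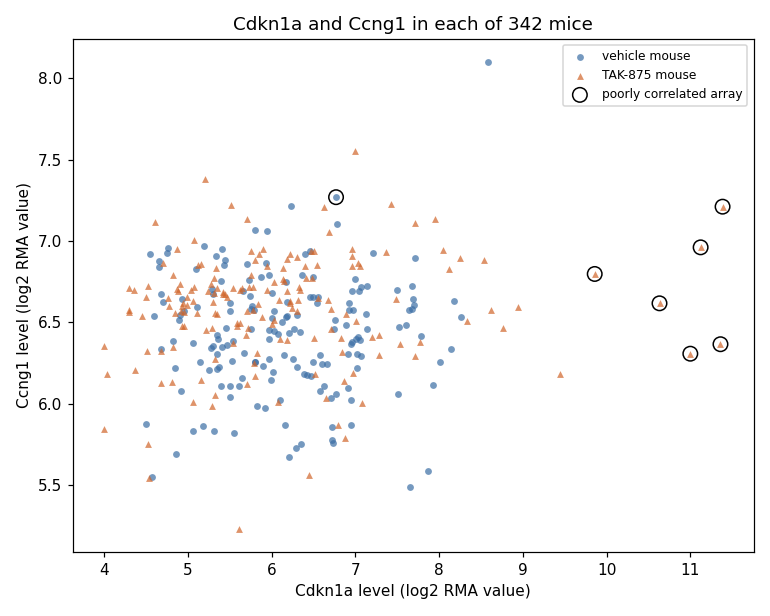
Cdkn1a level (horizontal axis, log2) against Ccng1 level (vertical axis, log2) in each of 342 mice, with vehicle mice as circles, TAK-875 mice as triangles and rings around the 7 poorly correlated arrays. Both axes show the main probe set of the gene. The 6 ringed triangles lie at 9.86 to 11.38 for Cdkn1a and at 6.31 to 7.21 for Ccng1, to the right of all other mice but not above them.

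Over the 44 lines, the mean response of Cdkn1a at 24 h did not pass the test, while more lines stood below 0 than above. The mean of the line means was 6.16 ± 0.63 (SD, n = 44 lines) in vehicle mice and 6.12 ± 0.92 in TAK-875 mice on the log2 scale. The response, TAK-875 minus vehicle within each study pair averaged by line, was -0.04 ± 0.97 (SD, n = 44 lines), with a 95% confidence interval of -0.31 to 0.23 (limma adjusted p = 0.871). It was above 0 in 14 lines and below 0 in 30, and the median line stood at -0.24. Without the 7 pairs the mean was -0.18 ± 0.82 (adjusted p = 0.261), with 11 lines above 0. By comparison, 27.1% of all genes passed this test, 15.3% (1388 genes) higher and 11.9% (1078 genes) lower. With arrays centred on their medians the split was 1052 higher and 1334 lower, and the median of all genes moved from 0.01 to -0.01.

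The mean change, which did not pass, went with large differences in single pairs. Of 171 pair differences for Cdkn1a, 78 were above 0 and 93 below, and they ran from -3.41 to 5.05. TAK-875 mice were more than 2-fold higher than their partner in 32 pairs and more than 2-fold lower in 45, and they were more than 4-fold higher in 17 and lower in 14. With the 7 pairs left out, 72 of 164 differences were above 0, 26 and 45 passed 2-fold higher and lower, and 11 and 14 passed 4-fold. The SD between mice of a line was 0.77 in vehicle mice and 1.27 in TAK-875 mice, pooled over lines, a ratio of 1.64. These SDs were 0.76 and 0.95 without the 7 pairs, a ratio of 1.25. The median ratio over all genes was 1.10, and 75.1% of genes had a wider spread with TAK-875. Taken line by line, the log2 ratio of the SDs averaged 0.29 and was above 0 in 28 of 44 lines (two-sided sign-flip permutation test, Benjamini-Hochberg adjusted p = 0.374), and 0.17 without the 7 pairs (adjusted p = 0.717), so a wider spread in the typical line did not pass the test.

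**Figure D2:**
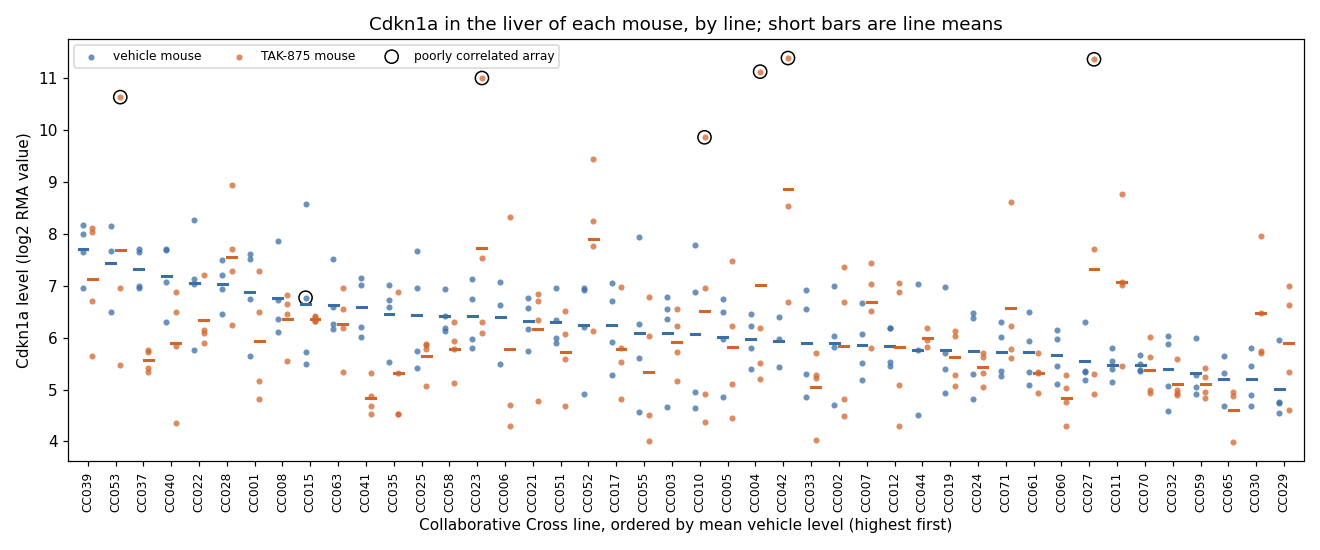
Cdkn1a level (vertical axis, log2) of every mouse in the 44 lines, ordered by mean vehicle level, with vehicle and TAK-875 mice as points, line means as short bars and rings around poorly correlated arrays. The ringed TAK-875 mice lie at 9.86 to 11.38, above all others, while in CC037/TauUnc and CC041/TauUnc all TAK-875 mice lie below the vehicle mice of their line.

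Lines differed in how Cdkn1a responded, but at the edge of the threshold (moderated F = 1.79, limma adjusted p = 0.045), where 16.2% of all genes passed. Without the 7 pairs the adjusted p was 0.0798. Leaving out single lines gave adjusted p-values from 0.0295 to 0.118, at or above 0.05 for 13 of the 44 lines, and highest without CC042/GeniUnc. The SD between lines, after the spread within lines was taken off, was 0.64.

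The highest Cdkn1a response was in CC042/GeniUnc, where 3 vehicle mice had 5.44, 5.97 and 6.39 and their TAK-875 partners 6.68, 8.53 and 11.38. All TAK-875 mice lay above all vehicle mice there, the only line of the 44 with this order, which is given as a description. The mean response was 2.93 (SD 1.90, n = 3 pairs), 7.64-fold, and was the 1 line response of Cdkn1a that passed (limma adjusted p = 0.0214 over all genes in the line, where 3.96% passed). Without the pair of the poorly correlated array, the remaining 2 pairs, 1.25 and 2.57, averaged 1.91, still the highest mean of the 44 lines, and did not pass with n = 2 (adjusted p = 0.999). The next line, CC027/GeniUnc, averaged 1.77 with TAK-875 mice at 11.36, 7.71, 5.30 and 4.92 against vehicle mice at 6.30, 5.19, 5.34 and 5.36. Without its poorly correlated array it averaged 0.68. CC004/TauUnc went in the same way from 1.04 to -0.25 and CC023/GeniUnc from 1.32 to 0.09.

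Other lines had high Cdkn1a with no poorly correlated array. In CC052/GeniUnc the vehicle mice had 4.91, 6.95, 6.21 and 6.91 and their partners 9.44, 6.13, 8.24 and 7.77, a mean of 1.65 (SD 2.25, n = 4 pairs, adjusted p = 0.113). In CC011/Unc the vehicle mice had 5.56, 5.40, 5.15 and 5.80 and their partners 8.77, 7.07, 5.45 and 7.01, higher in 4 of 4 pairs with a mean of 1.60 (adjusted p = 0.452). Neither passed over all genes of its line, and the groups overlapped in both.

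At the other end, Cdkn1a was lower in every pair of 7 lines, against 3 lines in which it was higher in every pair. In 2 of the 7, all TAK-875 mice lay below all vehicle mice. These counts have no share over all genes beside them and are descriptions only. In CC037/TauUnc the vehicle mice had 7.70, 7.64, 6.95 and 7.00 and the TAK-875 mice 5.34, 5.72, 5.42 and 5.76, a mean response of -1.76 (SD 0.48, n = 4 pairs, adjusted p = 0.861). In CC041/TauUnc the vehicle mice had 7.01, 7.14, 6.01 and 6.21 and the TAK-875 mice 4.68, 4.87, 4.52 and 5.32, a mean of -1.75 (SD 0.69, n = 4 pairs, adjusted p = 0.0705). These TAK-875 mice were both low and close together. In the fit without the 7 pairs, none of them from CC041/TauUnc, that line passed (adjusted p = 0.0334, where 20.2% of genes in the line passed). CC040/TauUnc followed at -1.30, where a single pair stood at -3.34, and CC035/Unc at -1.15. Between neighbouring lines in the order of responses the largest step was 1.16, between CC042/GeniUnc and CC027/GeniUnc, against a standard error of 0.99 for the difference of 2 lines, so no neighbours differed clearly beyond their spread.

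Without the compound, Cdkn1a differed between lines (F = 2.69, adjusted p = 1.08e-05; 1.07e-05 without the 7 pairs), as did 98% of all genes. Vehicle means ran from 5.00 ± 0.64 (SD, n = 4 mice) in CC029/Unc to 7.70 ± 0.54 in CC039/Unc, a 6.48-fold range. On the other probe set they ran from 3.23 in CC059/TauUnc to 7.22 in CC053/Unc, a 15.9-fold range. After CC039/Unc came CC053/Unc at 7.44, CC037/TauUnc at 7.32 and CC040/TauUnc at 7.19. From there the means descended from 7.05 in CC022/GeniUnc to 5.39 in CC032/GeniUnc, and the lowest were CC059/TauUnc at 5.31, CC065/Unc at 5.21, CC030/GeniUnc at 5.20 and CC029/Unc. The largest step between neighbours was 0.26, below the standard error of 0.54 for the difference of 2 lines. The 4 vehicle mice of CC039/Unc had 7.65, 8.00, 6.96 and 8.18 and those of CC029/Unc 4.77, 4.55, 4.75 and 5.95. These lines were picked as the ends of this order, so nothing is read from their lack of overlap. On the other probe set CC029/Unc ranked 33 from the highest.

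The order of lines in vehicle mice carried over weakly to TAK-875 mice for Cdkn1a (Pearson r = 0.27, permutation p = 0.0795; Spearman rho = 0.27, p = 0.0751; adjusted p = 0.159 over 4 relations, n = 44 lines). Leaving out the pair of lines farthest from the median, CC039/Unc and CC053/Unc, gave r = 0.14, and leaving out the 7 pairs r = 0.29. The other probe set gave r = 0.43 (adjusted p = 0.0171), so the call depends on the probe set.

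Ccng1 rose slightly in most lines on its main probe set. The mean of the line means was 6.43 ± 0.30 (SD, n = 44 lines) in vehicle mice and 6.59 ± 0.28 in TAK-875 mice. The response was 0.16 ± 0.24 (SD, n = 44 lines), 1.11-fold, with a 95% confidence interval of 0.08 to 0.23 (limma adjusted p = 0.000919). It was above 0 in 34 of 44 lines and in 120 of 171 pairs, and pair differences ran from -1.46 to 1.34. Few pairs passed 2-fold, with 3 higher and 1 lower. Without the 7 pairs the mean was 0.15 (adjusted p = 0.000829), again with 34 lines above 0.

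The other Ccng1 probe set did not show this rise. It averaged -0.00 ± 0.42 (SD, n = 44 lines; adjusted p = 0.969), with 23 lines above 0, and had the same sign as the main probe set in 29 lines. The correlation of both probe sets over 342 arrays was 0.43, and that of their line responses was 0.56. The mean of both gave 0.08 (adjusted p = 0.213). The other probe set is dimmer, at a mean level of 5.28 against 6.51, and its spread between vehicle mice of a line was 0.50 against 0.25. For Cdkn1a, in contrast, the probe sets correlated at 0.92 over arrays and at 0.97 over line responses, and had the same sign in 40 of 44 lines. The difference between the Ccng1 probe sets was not tested further. The line response of Ccng1 also moved with the difference in array medians (r = 0.58 over 44 lines, a description), and with arrays centred on their medians the mean was 0.14 (adjusted p = 0.000534).

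**Figure D3:**
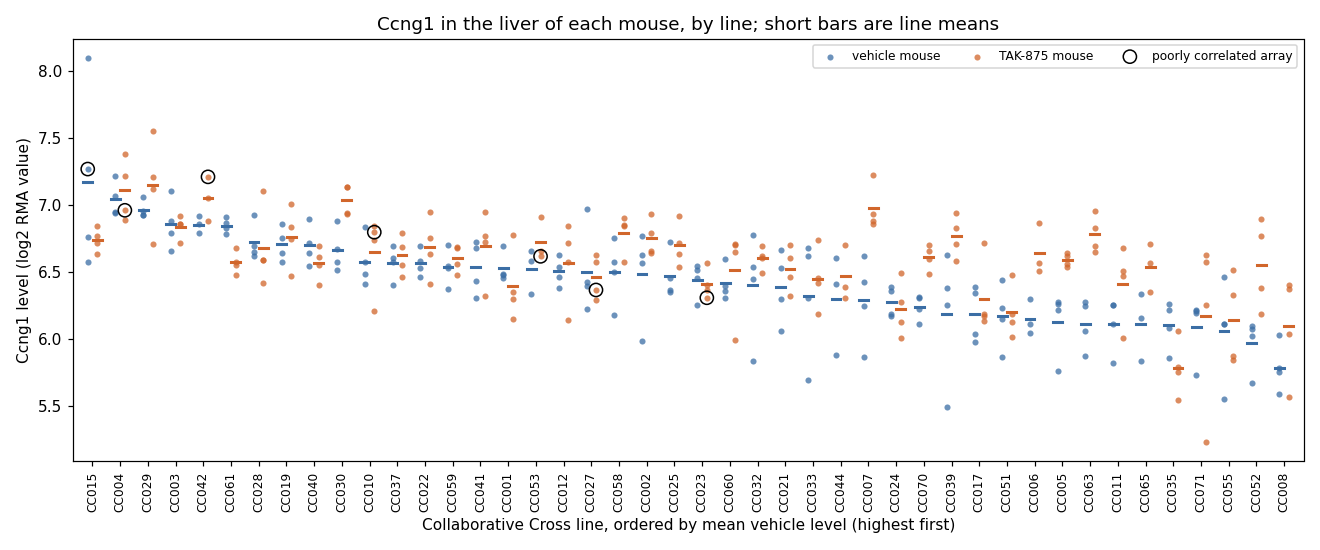
Ccng1 level (vertical axis, log2, main probe set) of every mouse in the 44 lines, ordered by mean vehicle level, with vehicle and TAK-875 mice as points, line means as short bars and rings around poorly correlated arrays. Ringed TAK-875 mice lie among the others, and the single highest value, 8.10, is a vehicle mouse of CC015/Unc.

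Ccng1 also responded differently between lines (F = 1.93, adjusted p = 0.0276). Leaving out single lines gave adjusted p-values from 0.0139 to 0.0554, and 3 lines took it to 0.05 or above. The other probe set gave 0.283 and the mean of both 0.0997. All TAK-875 mice lay above all vehicle mice in 8 lines and below them in 1, with overlap in 35. These counts use values not centred on array medians. The share over all genes is not given beside them, so nothing is read from them.

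The highest Ccng1 response was in CC007/Unc. Its vehicle mice had 5.86, 6.43, 6.24 and 6.62 and their TAK-875 partners 6.86, 6.88, 7.23 and 6.94, a mean of 0.69 (SD 0.35, n = 4 pairs, 1.61-fold), and it passed (adjusted p = 0.00768, where 4.75% of genes passed). In CC052/GeniUnc the vehicle mice had 6.08, 6.02, 5.67 and 6.10 and their partners 6.18, 6.77, 6.89 and 6.38, a mean of 0.59 (SD 0.50), which also passed (adjusted p = 0.0161, where 11.3% passed). Groups did not overlap in either line. The CC007/Unc call was kept without strain pair number 2 or 4 of every line and lost without 1 or 3, and the CC052/GeniUnc call was kept without 1 or 4 and lost without 2 or 3. On the other probe set these lines had 0.21 and -0.12. CC063/Unc, at 0.67 (SD 0.29, n = 4 pairs) with no overlap, did not pass (adjusted p = 0.177), and CC039/Unc stood at 0.58.

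The lowest Ccng1 response, -0.43 (SD 0.76, n = 4 pairs) was in CC015/Unc (adjusted p = 0.218). Its vehicle mice had 8.10, 6.76, 7.27 and 6.57, while the TAK-875 mice had 6.64, 6.85, 6.72 and 6.77. The value of 7.27 is that of the poorly correlated vehicle array, and without its pair the mean was -0.39 (adjusted p = 0.788). In CC061/GeniUnc the vehicle mice had 6.91, 6.86, 6.83 and 6.78 and the TAK-875 mice 6.57, 6.48, 6.68 and 6.56, a mean of -0.27 (SD 0.11, adjusted p = 0.617), and this was the 1 line with all TAK-875 mice below. CC035/Unc had -0.32 and CC001/Unc -0.14. The largest step between neighbouring lines was 0.14, against a standard error of 0.25 for the difference of 2 lines.

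Vehicle levels of Ccng1 differed between lines (F = 5.75, adjusted p = 1.37e-14; 98% of genes passed). On the main probe set they ran from 5.78 ± 0.18 (SD, n = 4 mice) in CC008/GeniUnc to 7.18 ± 0.68 in CC015/Unc, a 2.62-fold range. CC004/TauUnc at 7.04, CC029/Unc at 6.97 and CC003/Unc at 6.86 followed the highest, and CC052/GeniUnc at 5.97, CC055/TauUnc at 6.06 and CC071/TauUnc at 6.09 the lowest. The means between them descended from 6.85 in CC042/GeniUnc to 6.10 in CC035/Unc. The largest step between neighbours was 0.18, about the standard error of 0.18 for the difference of 2 lines. The other probe set had other lines at both ends, from 4.30 in CC063/Unc to 6.01 in CC041/TauUnc, a 3.28-fold range. Its vehicle line means correlated at 0.51 with those of the main probe set. On the main probe set the CC015/Unc mean includes the poorly correlated vehicle array, at 7.27. The order of lines was kept in TAK-875 mice (r = 0.64, permutation p = 2e-05; rho = 0.62, p = 4e-05; adjusted p = 8e-05, n = 44 lines). Leaving out CC015/Unc and CC008/GeniUnc gave r = 0.63, and r within each strain pair number was 0.36 to 0.49.

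Across lines, neither the responses nor the vehicle levels of the pair of genes had a correlation that passed. Their responses correlated at r = 0.19 (permutation p = 0.221; rho = 0.18, p = 0.254; adjusted p = 0.294 over 4 relations, n = 44 lines), and without the 7 pairs at r = 0.26. Within strain pair numbers r was 0.23, 0.13, 0.33 and -0.21. Leaving out CC042/GeniUnc and CC027/GeniUnc gave 0.26. Their vehicle levels correlated at r = -0.02 (permutation p = 0.872; rho = 0.02, p = 0.901; adjusted p = 0.872), and leaving out CC039/Unc and CC053/Unc gave 0.01. CC052/GeniUnc was among the 4 highest lines for both responses.

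**Figure D4:**
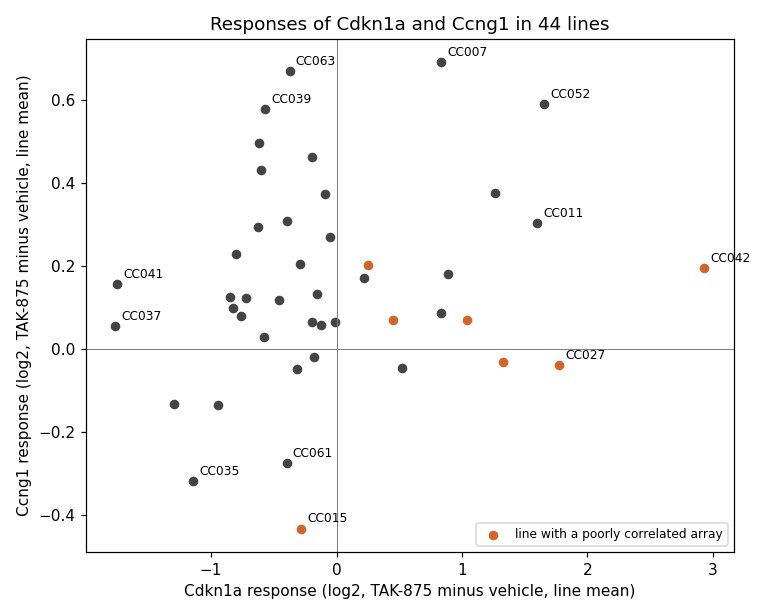
Line mean response of Ccng1 (vertical axis) against that of Cdkn1a (horizontal axis), TAK-875 minus vehicle on the log2 scale, 1 point per line for 44 lines, with lines that hold a poorly correlated array in orange. Cdkn1a runs from -1.76 to 2.93 and Ccng1 from -0.43 to 0.69, and the points show no clear trend (r = 0.19).

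The other p53 targets were counted in the mean over lines. Of 45 targets listed for cell cycle arrest, cell death, and repair and metabolism, 31 were measured. Of these 4 rose, 2 fell and 25 did not pass, with a median of 0.03 against 0.01 over all genes, counts to be read against the 15.3% of all genes called higher and 11.9% called lower. Beside Ccng1, the risers were Plk3 at 0.32 ± 0.54 (SD, n = 44 lines, adjusted p = 0.00141), the receptor tyrosine kinase gene Epha2 at 0.15 ± 0.30 (adjusted p = 0.00772) and Bid, whose product links death receptors to mitochondria, at 0.13 ± 0.23 (adjusted p = 0.00365). Leaving out the 7 pairs, Plk3 averaged 0.17 (adjusted p = 0.00885), and Epha2 0.10 (adjusted p = 0.0495). Ccng2, a cyclin G relative better known as a FoxO target, fell by 0.20 (SD 0.41, adjusted p = 0.00972), and the glutathione peroxidase gene Gpx1 fell by 0.07 (SD 0.11, adjusted p = 0.00158). With the study pair as block and unit, 7 targets rose and 3 fell. That fit treats the pairs of a line as independent. The share of all genes called in it is not given, so nothing is read from these 2 counts. The Ccng2 call was lost without strain pair number 2 or 3, and the Epha2 call without 2 or 4.

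Of 12 regulators of p53, 8 were measured and none passed in the limma fit, while Trp53bp1 alone had an unadjusted p under 0.05 (0.03). Without the 7 pairs Trp53bp1, which encodes a DNA damage adaptor that binds p53, rose by 0.17 (adjusted p = 0.00166). Mdm2 stood at 0.04 ± 0.23 (SD, n = 44 lines, adjusted p = 0.424). Trp53 itself and the death effector gene Bax were not analysed here. The counts in the lists that follow stand beside 15.3% of all genes called higher and 11.9% called lower. Among the 4 CDK inhibitor genes measured, Cdkn2c fell by 0.17 (SD 0.28, adjusted p = 0.00169) and Cdkn1b, which encodes p27, fell by 0.07 (SD 0.16, adjusted p = 0.0373; 0.0502 without the 7 pairs). Of the 8 cyclins, kinases and PCNA that p21 binds, Ccnd1, the G1 cyclin D1, rose by 0.38 (SD 0.55, adjusted p = 0.000179) and 7 did not pass. Of 8 genes for the cyclin G family and PP2A, 1 rose and 3 fell: Ccng1 and Ccng2 as above, and the PP2A subunit genes Ppp2r5a at -0.15 and Ppp2r5b at -0.11 (adjusted p = 0.0111 and 0.00332). Of 12 proliferation genes, the replication helicase genes Mcm5 and Mcm6 rose by 0.21 and 0.22 (adjusted p = 0.00527 and 0.000857), Tk1, thymidine kinase, fell by 0.28 (adjusted p = 7.17e-05), and 9 did not pass. Calls were lost without strain pair number 3 for Mcm5 and Ppp2r5b and without number 4 for Ppp2r5a.

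**Figure D5:**
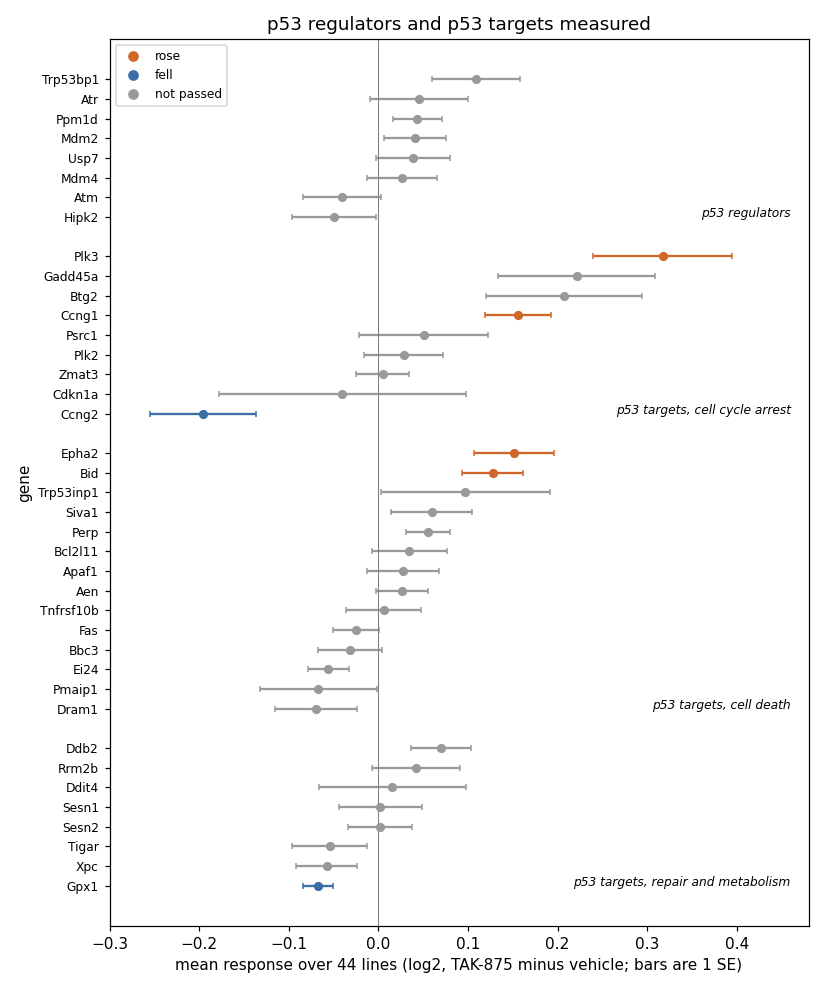
Mean response over 44 lines (horizontal axis, log2, TAK-875 minus vehicle) of the 8 p53 regulators and 31 p53 targets measured, with bars of 1 standard error and colours for genes that rose, fell or did not pass. Cdkn1a, at -0.04, has the widest bar, and 4 targets rose and 2 fell.

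Markers of other liver cells moved over the same lines, to be read beside 11.9% of all genes called lower and 15.3% called higher. Of 10 Kupffer cell markers 9 fell, led by Mpeg1 at -0.52, Cd5l at -0.30 and Clec4f at -0.28. Of 9 endothelial markers 4 fell (5 with centred arrays and 6 after quantile normalization), led by Stab2 at -0.26, Dnase1l3 at -0.24 and Clec4g at -0.20, and of 7 stellate cell and fibroblast markers 3 fell, Col3a1 by 0.29, Colec11 by 0.15 and Bgn by 0.12. Of the 10 hepatocyte markers Tat and Apoa1 rose by 0.17 and 0.06 and Cps1 fell by 0.07, and the Apoa1 call was lost with centred arrays (adjusted p = 0.0662). None of 5 neutrophil, 2 cholangiocyte and 1 T and NK cell markers passed, and of 2 B cell markers Jchain fell by 0.14. Across lines, the Ccng1 response had r = 0.30 with that of the Kupffer cell markers and 0.36 with that of the endothelial markers, and the Cdkn1a response had r = -0.15 and -0.07, as descriptions. Their part in the responses of Cdkn1a and Ccng1 was not tested.

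The genes whose line responses were most like that of Cdkn1a over the 44 lines were Irf2bp2 (r = 0.68), a transcriptional corepressor gene, Zbtb16 (0.68), Nedd4l (0.67), a ubiquitin ligase gene, Ddit4 (0.66), an inhibitor of mTOR signalling, and the clock gene Per1 (0.66). Without the 7 pairs these values were 0.46, 0.64, 0.53, 0.46 and 0.48, so the likeness of Zbtb16 depended least on those mice among the 5. Most like the vehicle level of Cdkn1a were Slc45a3 (0.56), the choline kinase gene Chka (0.56), the clock gene Cry1 (0.53), Ppard (0.50), which encodes a lipid-sensing nuclear receptor, and Rhobtb1 (0.50). No gene was in both sets. For the Ccng1 response they were Eif1ax (0.71), a translation initiation factor gene, Cdc73 (0.68), Alcam (0.66), Bnip2 (0.66) and Sbf2 (0.65), and for its vehicle level Stam2 (0.72), Wdr41 (0.72), Onecut2 (0.68), Clcn5 (0.68) and Thap12 (0.67). The median r over all genes was -0.03 and -0.01 for Cdkn1a and 0.09 and 0.14 for Ccng1, for response and vehicle level. These are the largest of 9093 correlations and describe likeness on shared arrays.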

How the data were processed

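Liver RNA of 342 mice was measured on Affymetrix HT MG-430 PM arrays. The deposited values are log2 expression levels of probe sets, which the authors computed by RMA; the submitters' processing notes name Affymetrix Power Tools, with no version in the sources used here. RMA subtracts background, brings arrays to a common distribution and summarises probes, which compresses low levels. In the values used, array medians still ran from 5.40 to 6.22. All probe sets were kept, with no filter on detection.

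Of 16397 probe sets, 13083 named 1 gene, giving 9093 genes with the brightest probe set each. Pair differences were averaged by line, and the 44 line means were tested against 0 with limma 3.58.1 in R 4.3.3 (eBayes trended on mean level, two-sided, Benjamini-Hochberg adjusted p of 0.05 over all genes). Moderated F tests compared lines on the 171 differences (127 residual degrees of freedom) and on vehicle arrays, and the first fit gave the calls within lines. Correlations used 100000 permutations, with adjustment over 4 relations. The scripts were tested on simulated data. Promoter sequences and names came from RefSeq (GRCm38.p6), and figures were drawn with matplotlib 3.10.9.

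The labels say that mice were treated in pairs. After subtracting group means, the 2 arrays of a pair had a mean correlation of 0.0361, other vehicle and TAK-875 arrays of a line one of -0.0117, and 60 of 171 pairs exceeded 0.1. Named genes were both members, the 5 genes most like each, called p53 genes (up to 8), Trp53, Mdm2 and Bax, up to 3 called genes of each other list, and for lines the 4 highest and 4 lowest. The members and lists were chosen with earlier results of these data known. The comparison of spread within lines, the range of genes in the poorly correlated arrays, and the responses of single lines without the poorly correlated arrays, were chosen after seeing the data. Alternatives were other probe sets, scalings, filters, variance models and units, and leaving out replicates, lines or poorly correlated arrays.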

Additional observations from a re-analysis of the deposited data

Results flagged for a closer look

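Groups of 4 vehicle levels or 4 pair differences of a line were screened, and TAK-875 levels on their own were not. Of these, 9 of 156 groups held a value far from the other 3, where chance gives about 1 in 20. For Cdkn1a these were the pair difference of -3.34 in CC040/TauUnc pair 2 (others -0.82 to -0.47) and the vehicle levels of 6.30 in CC027/GeniUnc pair 1 (others 5.19 to 5.36) and 5.95 in CC029/Unc pair 4 (others 4.55 to 4.77). The CC027/GeniUnc mouse is the partner of the TAK-875 mouse with the second highest Cdkn1a.

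For Ccng1 they were the differences of 0.78 in CC005/TauUnc pair 1 (others 0.34 to 0.39), -0.68 in CC027/GeniUnc pair 2 (others 0.14 to 0.20) and -0.98 in CC071/TauUnc pair 3 (others 0.36 to 0.52). The Ccng1 vehicle levels were 6.69 in CC001/Unc pair 1 (others 6.46 to 6.49), 5.76 in CC005/TauUnc pair 1 (others 6.22 to 6.28) and 5.73 in CC071/TauUnc pair 1 (others 6.20 to 6.21). The response between lines differed by the moderated F test of limma for Cdkn1a (adjusted p = 0.045) and Ccng1 (adjusted p = 0.0276).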

How the results depend on the processing

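The mean response of Cdkn1a did not pass under any alternative, and it was above 0 with the other probe set (0.0078) and ranged from -0.16 to 0.077 without each replicate number in turn (0.077 without number 2 and 0.027 without number 3). The Ccng1 rise was lost with the mean of both probe sets (0.076) and turned with the other (-0.0044), and it passed under the other alternatives, including without each replicate (0.14 to 0.18) and each line (0.14 to 0.17). The replicate block, with the study pair as the unit, gave 0.15 for Ccng1 and -0.05 for Cdkn1a and raised the p53 targets called higher to 7, and it changed no call of a member. The share of all genes called in that fit is not given, so nothing is read from the 7. The F test between lines for Cdkn1a fell below the threshold with the mean of probe sets (1.70), the other probe set (1.61), without the poorly correlated pairs (1.60), with no replicate block (1.63, adjusted p = 0.0699) and without each replicate (1.43 to 1.86). For Ccng1 it did so with the mean of probe sets (1.56), the other probe set (1.25) and without each replicate (1.52 to 1.81). The number of lines called was 0 to 2 for Cdkn1a and 0 to 4 for Ccng1 without each replicate, and for Ccng1 0 with the mean of probe sets and 1 with the other. That 1 line was CC041/TauUnc, lower at -1.04 (limma adjusted p = 0.0434), where the main probe set had 0.15 and was not called. p53 targets called lower numbered 1 to 2 without each replicate. The correlation of vehicle levels, near 0, turned to 0.019 with the mean of probe sets, 0.0059 with the other, and -0.10 to 0.11 without each replicate. The Cdkn1a correlation of vehicle with TAK-875 levels passed with the other probe set only (0.43). The log2 ratio of spreads for Ccng1, at -0.00, was 0.30 with the mean of probe sets, 0.32 with the other, 0.080 with centred arrays, 0.067 after quantile normalization, 0.066 without poorly correlated pairs, and -0.23 to 0.36 without each replicate, and none passed. The causes were not tested. Vehicle F tests and the Ccng1 correlation of levels passed under each alternative run.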
